A study of Mus musculus with 454 samples.

Results

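Dual-specificity phosphatases of the MAP kinase pathway are described here through 6 genes, Dusp1, Dusp2, Dusp4, Dusp5, Dusp6 and Dusp14, out of 43346 genes in the count table. They were taken by symbol, after Ensembl identifiers had been matched to gene names, and not by any measured value. MAP kinases (ERK, JNK and p38) are switched on by phosphorylation of a threonine and a tyrosine that lie close together. These enzymes switch them off by removing both phosphates. Several of the phosphatase genes are themselves induced by MAP kinase and cAMP signalling, so that they act as feedback inhibitors, and in neurons some are known as genes that respond quickly to activity and to psychostimulants. Dusp1, Dusp2, Dusp4 and Dusp5 encode nuclear enzymes, of which Dusp5 is selective for ERK. Dusp6 encodes the cytoplasmic ERK phosphatase, and Dusp14 a small atypical member without the kinase-binding domain of the others.

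The series asks how social isolation in adolescence bears on the transcriptome of reward regions in mice of both sexes. RNA-seq was run on 115 libraries of amygdala (AMY), 112 of nucleus accumbens (Nac), 112 of prefrontal cortex (PFC) and 115 of ventral tegmental area (VTA). In each region 16 groups of 5 to 8 libraries combined female or male sex, group housing or social isolation, 0 or 7.5 mg/kg cocaine (saline and cocaine below), and an acute or chronic schedule. The labels give no strain, no age, no number of injections and no time between the last injection and tissue collection. Nor do they say whether each library of a group had an animal to itself, and p-values therefore rest on a spread between libraries that may be technical.

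Library totals ran from 11.21 to 52.34 M counts, with a median of 21.71 M. The numbers in the sample titles fall into series of 500, 1000, 1100 and 1200, whose meaning the labels do not give. Acute saline and acute cocaine were both in series 1000 and 1100. Chronic saline was in 500 and 1200, while chronic cocaine was in 1000 and 1200, so that 8 chronic cocaine libraries per region, all of series 1200, had saline libraries of their own series. Over the other chronic libraries, treatment and series cannot be told apart. Defining markers of each region were present: the median summed level of a list of 10 genes was 2404 CPM (counts scaled to a common library total) for cortical glutamatergic neurons in PFC, 6625 CPM for striatal neurons in Nac, 4606 CPM for dopamine neurons in VTA and 230.7 CPM for medial amygdala and hypothalamus in AMY. In AMY 6 libraries stood apart from the rest of their region, as did 5 in Nac, 3 in PFC and 7 in VTA, mostly by choroid plexus, cerebellar or cortical markers, and 1 in AMY and 2 in Nac held transcripts of the other sex at over 5% of its level. Less RNA per cell and fewer cells of a type cannot be told apart in such tissue.

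The genes lie at chr17:26505590-26562128 (Dusp1, minus strand), chr2:127336159-127338376 (Dusp2, plus), chr8:34807297-34819894 (Dusp4, plus), chr19:53529109-53542431 (Dusp5, plus), chr10:99263231-99267489 (Dusp6, plus) and chr11:84048041-84069261 (Dusp14, minus) in GENCODE M21 on GRCm38. The annotated Dusp1 locus overlaps Ergic1 and Gm8225 on the other strand and AC122252.4 and AC122252.1 on its own strand, and Dusp5 overlaps an antisense transcript, AC137853.2. These overlaps are of whole gene spans, and shared exons were not checked. The strand setting of the counting is not given in the sources used here. Whether counts of Dusp1 and Dusp5 hold reads of these partners was not tested. For the partners on the same strand of Dusp1, a strand setting alone would not keep reads apart. RefSeq promoters (build GRCm38.p6) were found for 5 of the 6 genes, Dusp4 being the one without an entry.

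The 250 bases before the start of Dusp1 and Dusp5 are shown because Dusp5 gave the largest acute and Dusp1 the only series-matched chronic difference with cocaine (below), and because, of the 5 promoters, theirs alone held a motif that was searched. The starts are those of RefSeq and differ from the GENCODE spans above. The Dusp1 stretch lies inside its span, and the Dusp5 stretch runs past the first base of its span. Capitals mark the motif letters, 5′ to 3′ on the strand of the gene, at chr17:26508473-26508722 (minus) for Dusp1 and chr19:53528895-53529144 (plus) for Dusp5.
Dusp1: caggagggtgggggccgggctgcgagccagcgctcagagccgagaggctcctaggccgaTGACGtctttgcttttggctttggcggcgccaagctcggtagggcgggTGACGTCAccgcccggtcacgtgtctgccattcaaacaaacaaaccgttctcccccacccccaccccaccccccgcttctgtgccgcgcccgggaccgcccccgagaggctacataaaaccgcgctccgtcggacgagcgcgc
Dusp5: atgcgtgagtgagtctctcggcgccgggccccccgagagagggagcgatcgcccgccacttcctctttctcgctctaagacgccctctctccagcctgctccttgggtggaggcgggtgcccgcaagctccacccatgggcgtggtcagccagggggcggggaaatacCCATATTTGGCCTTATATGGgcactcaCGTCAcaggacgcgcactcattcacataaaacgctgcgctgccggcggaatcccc
The Dusp1 promoter held the full cAMP response element TGACGTCA, which begins 143 bases before the start and which 1.55% of 32851 promoters of the same length held. Its shorter form TGACG, searched on both strands, stood once more 191 bases before the start and also lies within the full element, and 17.8% of promoters held it. The Dusp5 promoter held a pair of adjoining CArG boxes, the element of serum response factor, which begin 82 and 72 bases before the start and read CCATATTTGG and CCTTATATGG. Such a box was found in 1.47% of promoters. The shorter form was found 55 bases before the start of Dusp5. None of the 5 promoters held the AP-1 element TGANTCA (6.75% of promoters) or the Egr element GCGTGGGCG (0.536%), and those of Dusp2, Dusp6 and Dusp14 held none of the motifs. A match describes these letters only.

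Per length of exon, Dusp14 was the most abundant member in PFC, Nac and AMY and Dusp6 in VTA, Dusp2 was the least abundant in every region, and Dusp1, Dusp5, Dusp6 and Dusp14 were higher in PFC than in each other region. On a scale shared by all libraries, Dusp14 stood at 34.9 ± 7.19 CPM per kb (SD, n = 112) in PFC, 21.4 ± 6.43 in Nac (n = 112), 15.2 ± 2.71 in AMY (n = 115) and 3.42 ± 1.02 in VTA (n = 115). Dusp6 stood at 18.7 ± 5.22 CPM per kb in PFC, 9.02 ± 3.02 in Nac, 8.56 ± 2.32 in AMY and 5.06 ± 0.956 in VTA, where Dusp1, at 3.98 ± 0.618, also lay above Dusp14. Dusp2 stayed between 0.265 ± 0.0948 CPM per kb in AMY and 0.413 ± 0.118 in Nac, so its values rest on the fewest counts.

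**Figure D1:**
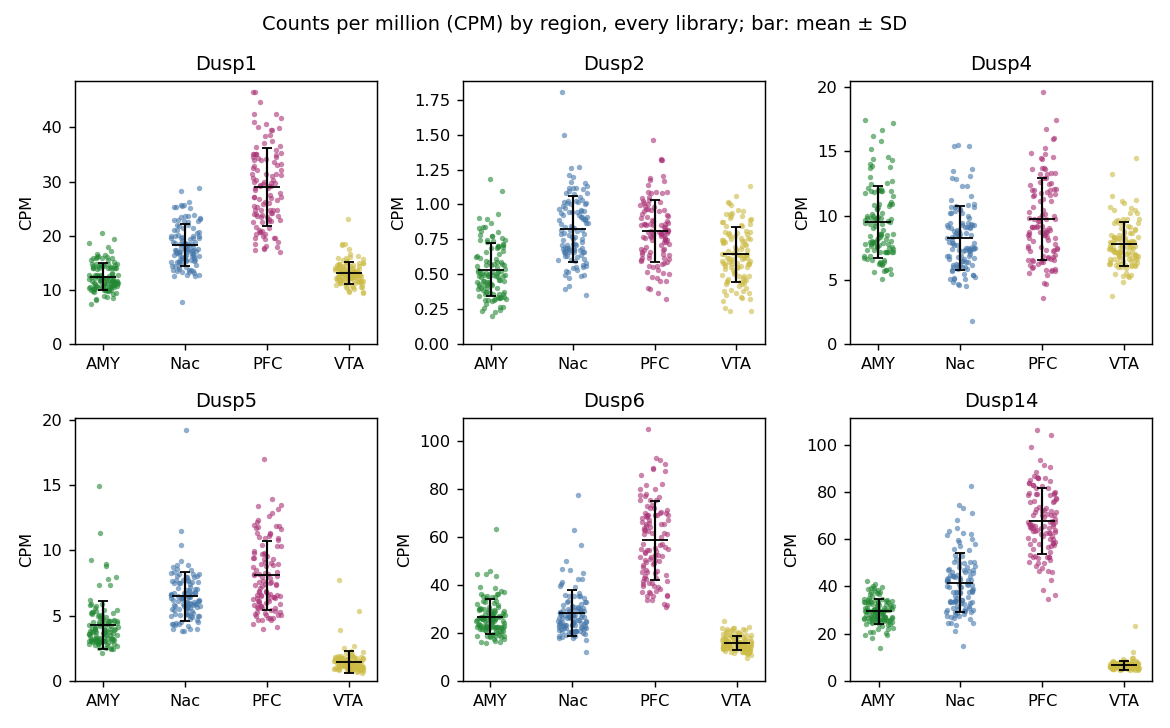
Level of each phosphatase gene in CPM (vertical axis, linear, from 0) in every library of the 4 regions (horizontal axis), scaled over all libraries of the series, with the mean and SD as bars. Dusp1, Dusp5, Dusp6 and Dusp14 are highest in PFC, and Dusp14 and Dusp5 are lowest in VTA, where single libraries reach 23.4 CPM of Dusp14 and 7.74 CPM of Dusp5.

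In CPM, Dusp14 ran from 34.5 to 106 in PFC around a median of 66.5, and from 4.41 to 23.4 in VTA around a median of 6.35. The ranges of the 2 regions did not overlap, and the difference on the log2 scale was 3.34 (SE 0.05, adjusted p = 1.11e-229, edgeR), or 10.1-fold. Dusp5 ran from 4 to 17.0 CPM in PFC (median 7.56) and from 0.643 to 7.74 CPM in VTA (median 1.26), a difference of 2.45 (SE 0.06). Dusp1 had a mean of 28.9 ± 7.19 CPM in PFC, 18.3 ± 3.83 in Nac, 13.2 ± 2.05 in VTA and 12.5 ± 2.49 in AMY. Dusp4 differed least between regions, with 9.72 ± 3.17 CPM in PFC, 9.51 ± 2.80 in AMY, 8.25 ± 2.49 in Nac and 7.80 ± 1.71 in VTA.

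Between regions nearly everything differs, and 81.5% of all genes tested passed the threshold (edgeR adjusted p under 0.05) for AMY against PFC, 84.4% for AMY against Nac, 86% for Nac against PFC, 87.3% for AMY against VTA, 89.3% for PFC against VTA and 90.4% for Nac against VTA. Neighbours in the order of levels that did not pass were AMY and Nac for Dusp6 (-0.06, SE 0.04, adjusted p = 0.144), AMY and PFC for Dusp4 (0.00, adjusted p = 0.936), Nac and VTA for Dusp4 (0.06, adjusted p = 0.177) and Nac and PFC for Dusp2 (0.03, adjusted p = 0.562). AMY and VTA differed for Dusp1 by -0.08 (SE 0.04, adjusted p = 0.0409), and by -0.05 (adjusted p = 0.236) without the libraries that stood apart. Every other pair of regions passed for every member.

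Among saline libraries, acute ones had higher means of Dusp4, Dusp5 and Dusp6 than chronic ones in each region. In PFC these 3 genes passed both among saline libraries and among cocaine libraries of one number series. Outside PFC, Dusp4 and Dusp6 passed among saline libraries only, while Dusp5 in AMY and Dusp14 in VTA passed in both sets. The comparison of acute with chronic libraries was added after the values had been seen. Acute saline came from number series other than those of chronic saline, so schedule and series cannot be told apart there. Among cocaine libraries, series 1000 held both schedules, and the comparison was repeated within it, also after the values had been seen. The title numbers of its acute cocaine libraries all lay below those of its chronic ones, so schedule and title number cannot be told apart there.

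In saline libraries of PFC, Dusp5 ran from 5.66 to 12.6 CPM with the acute schedule (median 8.41, n = 28) and from 3.87 to 7.25 CPM with the chronic one (median 5.36, n = 26). All 28 acute libraries lay above the chronic median and 20 lay above the highest chronic library. The difference was 0.64 on the log2 scale (SE 0.08, adjusted p = 8.19e-11, edgeR). Dusp6 ran from 49.7 to 89.3 CPM (median 66.1) against 31.2 to 66.7 CPM (median 43.6), a difference of 0.60 (SE 0.07, adjusted p = 2.19e-10), with all 28 acute libraries above the chronic median. Dusp4 ran from 6.25 to 15.4 CPM (median 9.51) against 3.5 to 11.4 CPM (median 6.16), a difference of 0.58 (SE 0.10, adjusted p = 1.01e-06), again with all 28 above. The ranges overlapped for each of the 3 genes, and the difference had the same sign in all 4 combinations of sex and housing. Dusp14 was higher by 0.32 (SE 0.07, adjusted p = 1.42e-04). Dusp1 was 0.22 higher (SE 0.09, adjusted p = 0.0586) and Dusp2 0.25 lower (-0.25, SE 0.11, adjusted p = 0.0845), and neither passed.

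**Figure D2:**
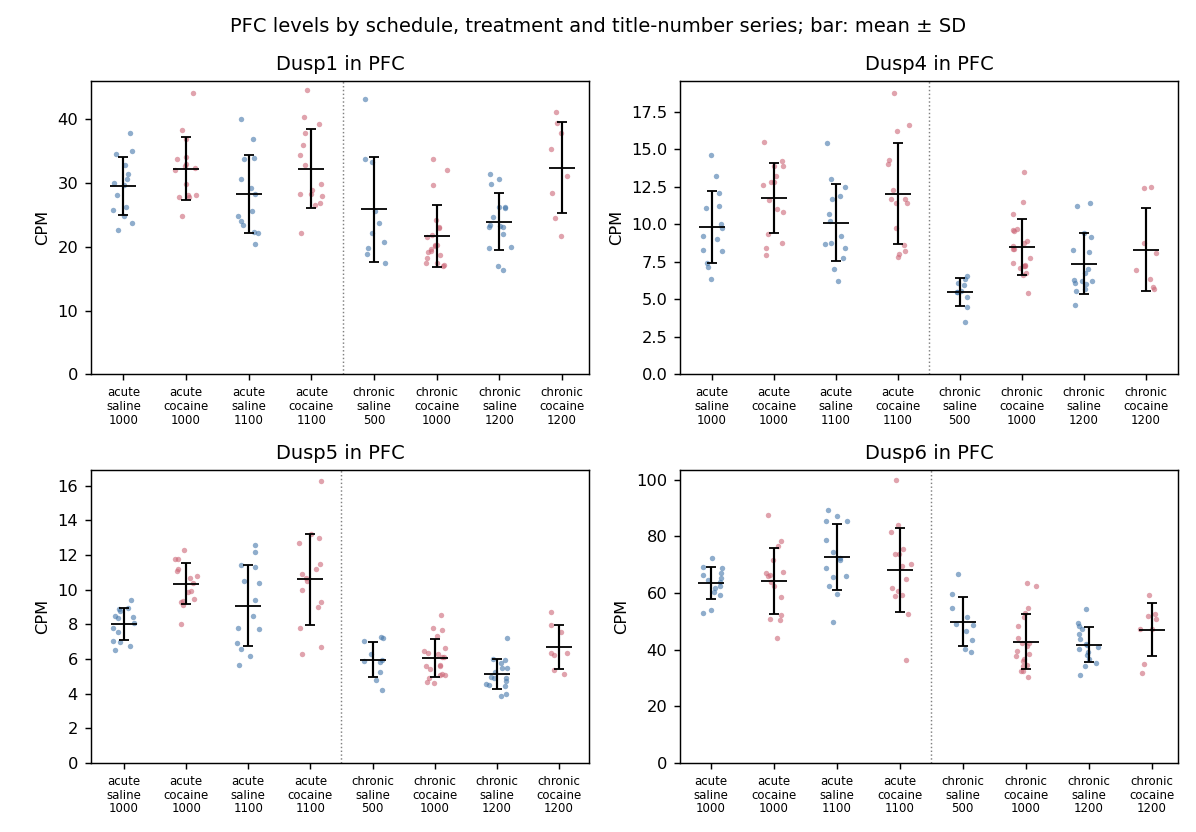
Levels of Dusp1, Dusp4, Dusp5 and Dusp6 in PFC in CPM (vertical axis, linear, from 0), every library by schedule, treatment and title-number series (horizontal axis), with the mean and SD as bars, saline in blue and cocaine in red. Left of the dotted line are the acute libraries, whose means of Dusp5 lie between 8.01 and 10.6 CPM, and right of it the chronic ones, with means between 5.12 and 6.71 CPM.

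In the other regions the saline difference passed for 2 to 4 members. Background shares were 23.3% of genes called in PFC, 20.4% in AMY, 20.9% in Nac and 43.6% in VTA, against 4 of 6 members in PFC, 4 of 6 in AMY, 2 of 6 in Nac and 3 of 6 in VTA, all 13 of them higher in acute libraries. Dusp4 and Dusp6 passed in every region. Dusp4 was higher by 0.60 in AMY (SE 0.09, adjusted p = 3.44e-07), 0.57 in Nac (SE 0.10, adjusted p = 1.68e-05) and 0.22 in VTA (SE 0.08, adjusted p = 0.0168). Dusp6 was higher by 0.44 in AMY (SE 0.09, adjusted p = 4.79e-05), 0.48 in Nac (SE 0.10, adjusted p = 3.99e-04) and 0.34 in VTA (SE 0.06, adjusted p = 1.07e-06). Dusp5 passed in AMY (0.60, SE 0.11, adjusted p = 1.10e-05), and in Nac and VTA it gave 0.18 (adjusted p = 0.191) and 0.35 (adjusted p = 0.05, just short of the threshold). Without the libraries that stood apart, Dusp5 passed in Nac (0.28, adjusted p = 0.00836) and VTA (0.45, adjusted p = 8.91e-04) too. With all libraries, Dusp14 was the remaining call in VTA. Its mean was 7.29 CPM in acute and 5.81 CPM in chronic libraries, and 27 of 28 acute ones exceeded the chronic median. In AMY, where a further member passed, means were 32 against 27.9 CPM for Dusp14 and 13.3 against 11.8 CPM for Dusp1.

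Within series 1000, cocaine libraries of PFC, which the saline comparison had not used, differed in the same direction. There Dusp5 ran from 8 to 12.3 CPM with the acute schedule (median 10.4, n = 15) and from 4.63 to 8.54 CPM with the chronic one (median 5.88, n = 20). Every chronic library was exceeded by 14 of 15 acute ones, and the difference was 0.77 (SE 0.07, adjusted p = 1.66e-09, edgeR). Dusp6 differed by 0.58 (SE 0.10, adjusted p = 2.35e-04), Dusp1 by 0.58 (SE 0.09, adjusted p = 6.84e-05) and Dusp4 by 0.45 (SE 0.09, adjusted p = 0.00224), so that 4 of 6 members were called where 11.6% of all genes were. Elsewhere the pattern was weaker: 1 of 6 members was called in AMY (Dusp5, 0.68, SE 0.15, adjusted p = 0.00464, background 11.8%), 1 in VTA (Dusp14, 0.16, SE 0.05, adjusted p = 0.0269, background 24.9%) and 0 in Nac (background 4.31%). Dusp4 and Dusp6, which passed among saline libraries of AMY, Nac and VTA, gave between -0.06 and 0.19 in these regions, and whether the saline and cocaine differences differ was not tested.

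**Figure D3:**
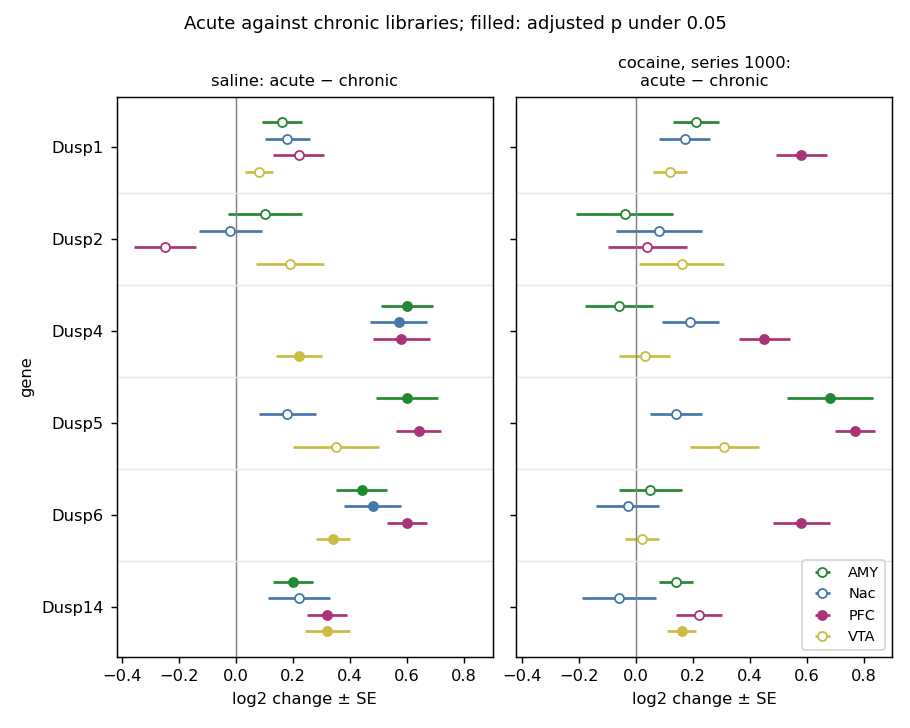
Difference between acute and chronic libraries on the log2 scale (horizontal axis, positive where acute is higher, bars are SE) for the 6 genes (vertical axis) in 4 regions (colours), for all saline libraries on the left and for cocaine libraries of series 1000 on the right. Filled points passed an adjusted p of 0.05, and in PFC Dusp4, Dusp5 and Dusp6 are filled on both sides.

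The other pathway genes were counted from fixed lists. The 30 activity-regulated genes include the transcription factors Fos, Egr1 and Nr4a1. Of these 30, 27 rose and none fell in acute against chronic saline libraries of PFC, with a median of 0.72. Over all genes, 23.3% were called in that comparison. Egr2 changed by 2.78 (SE 0.17), Fosb by 1.72 (SE 0.10), Egr1 by 1.34 (SE 0.10) and Nr4a3 by 1.09 (SE 0.09). In the cocaine libraries of series 1000 in PFC, where 11.6% of all genes were called, 26 of the 30 rose and none fell, with a median of 0.73. Of 11 other feedback inhibitors of ERK signalling, 7 rose and none fell in saline PFC, among them Errfi1 (0.30, SE 0.03), Spred1 (0.38, SE 0.04), Spred2 (0.44, SE 0.05) and Spry4 (0.48, SE 0.06).

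Against the 23.3% of all genes called in that comparison, 4 of 19 genes of the ERK cascade rose and 1 fell in saline PFC with a median of 0.03, and 2 of 15 genes of the JNK and p38 cascades rose and 1 fell with a median of 0.04. Of the other typical MAP kinase phosphatases Dusp7, Dusp8, Dusp9, Dusp10 and Dusp16, Dusp7 alone passed there (0.17, SE 0.04, adjusted p = 4.45e-04), and the other 4 lay between -0.03 and 0.05. Over all genes tested in that comparison the median change was -0.012. Cell type markers differed as well in the series 1000 cocaine libraries of PFC, where 11.6% of all genes were called. There 11 of 11 oligodendrocyte markers fell (median -0.73), as did 6 of 10 microglial and 3 of 10 striatal markers. In saline PFC 0 of 11, 1 of 10 and 0 of 10 of these markers fell. The part of these markers in the differences of the members was not tested.

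Acute cocaine against acute saline was compared as the mean of the 4 combinations of sex and housing in each region. None of the 24 tests of a member passed with edgeR. Of all genes 0.0647% passed in PFC, 0.0467% in VTA and 0% in AMY and Nac. An unadjusted p under 0.05 was found in 4 of the 24 tests. The share of all genes with such a p was 10.6% in PFC, 6.47% in VTA, 5.18% in Nac and 3.09% in AMY. The largest change was that of Dusp5 in PFC. It ran from 5.66 to 12.6 CPM with saline (median 8.41, n = 28) and from 6.30 to 16.3 CPM with cocaine (median 10.6, n = 30), and 26 of 30 cocaine libraries lay above the saline median although the ranges overlapped widely. The change was 0.30 (SE 0.07, 95% interval 0.16 to 0.44) with an adjusted p of 0.0918, higher with cocaine in all 4 combinations. DESeq2 (0.30, adjusted p = 0.048) and limma voom (0.30, adjusted p = 0.0416) put it past the threshold, as did leaving out the 3 libraries that stood apart in PFC (0.33, adjusted p = 0.0255, edgeR).

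Within number series 1000 and within 1100, 0 of 24 tests of acute cocaine passed. Of all genes 0.0591% passed in PFC for series 1100, and 0% otherwise. An unadjusted p under 0.05 was found in 3 tests for series 1000 and in 7 for series 1100, 4 of the 7 in PFC. The share of all genes with such a p was 3.42% (series 1000) and 14.3% (series 1100) in PFC. It was 3.11% and 10.2% in Nac, and 2.88% and 2% in AMY. VTA held 2 of the 7 tests in series 1100. There limma voom gave 2059 (series 1000) and 1448 (series 1100) such genes of 17581 tested. The Dusp5 change in PFC was 0.38 in series 1000 (SE 0.10, adjusted p = 0.567) and 0.24 in series 1100 (SE 0.10, adjusted p = 0.246). In series 1000 it ran from 6.52 to 9.43 CPM with saline (median 8.23, n = 14) and from 8 to 12.3 CPM with cocaine (median 10.4, n = 15), and 14 of 15 cocaine libraries exceeded the saline median. The difference between the series was -0.14 (SE 0.14, adjusted p = 0.998). By housing, 0 of 24 tests passed in group-housed and 0 of 24 in isolated mice, with 5 and 2 at an unadjusted p under 0.05. Of all genes, 0.332% passed in VTA, 0.0647% in PFC, 0.0174% in Nac and 0% in AMY in group-housed mice. In isolated mice 0.554% passed in VTA and 0% elsewhere. The share of all genes with an unadjusted p under 0.05 in group-housed mice was 16% in VTA, 10.3% in PFC, 4.76% in Nac and 10.9% in AMY. In isolated mice it was 8.59% in VTA, 2.48% in PFC, 5.49% in Nac and 2.9% in AMY. The Dusp5 change in PFC was 0.28 in group-housed (SE 0.10, adjusted p = 0.345) and 0.32 in isolated mice (SE 0.10, adjusted p = 0.999).

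Dusp4 in PFC was 0.25 higher with acute cocaine (SE 0.09, adjusted p = 0.348), Dusp1 0.16 higher (SE 0.09, adjusted p = 0.494) and Dusp14 lower (-0.15, SE 0.06, adjusted p = 0.407). In group-housed mice Dusp4 gave 0.46 (SE 0.13, adjusted p = 0.15), where 14 of 15 cocaine libraries exceeded the saline median, against 0.04 (SE 0.13) in isolated mice with 8 of 15. The difference between housings was -0.41 (SE 0.18) with an unadjusted p of 0.0228 and an adjusted p of 1, so a difference is not shown. In PFC with acute cocaine over both housings, where 0.0647% of all genes passed, 2 of 30 activity-regulated genes rose, and 0 of 11 feedback inhibitors, 0 of 19 ERK cascade genes and 0 of 5 other typical phosphatases passed.

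**Figure D4:**
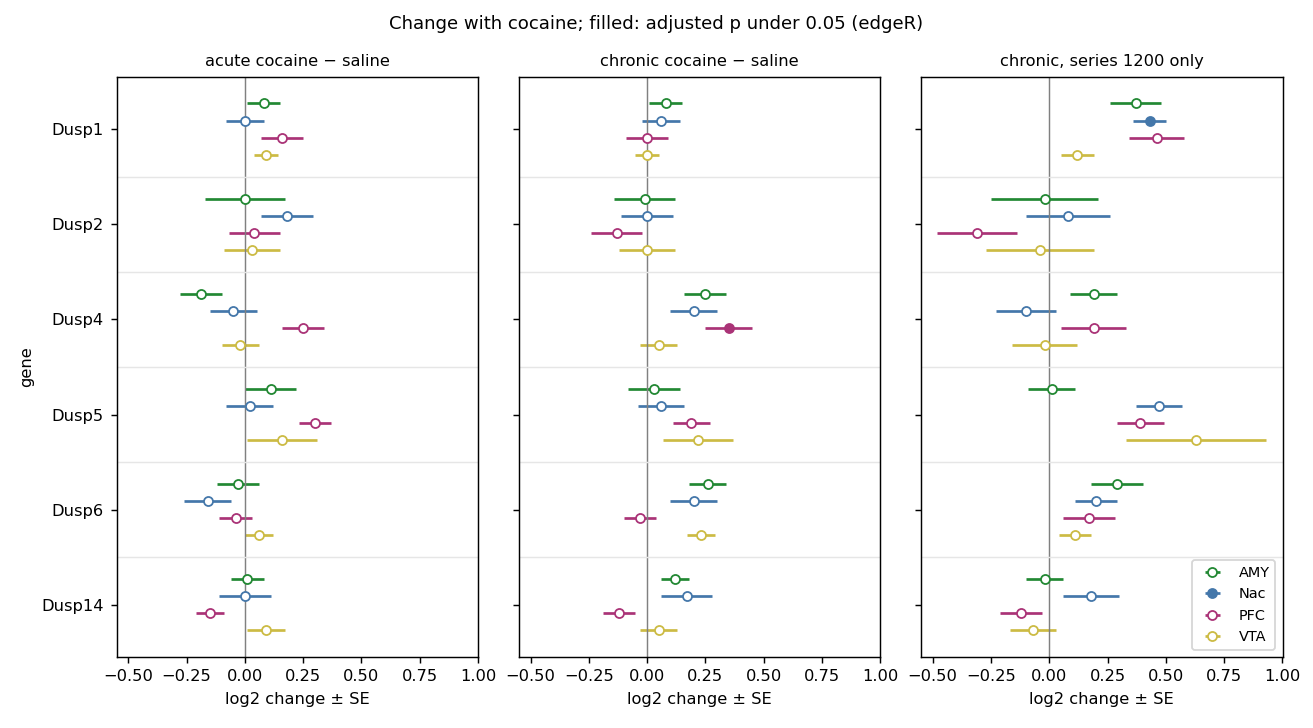
Change with cocaine on the log2 scale (horizontal axis, positive where cocaine is higher, bars are SE) for the 6 genes (vertical axis) in 4 regions (colours): acute on the left, chronic over all libraries in the middle, chronic within series 1200 on the right. Filled points passed an adjusted p of 0.05: Dusp4 in PFC in the middle (0.35) and Dusp1 in Nac on the right (0.43).

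In VTA the acute change of Dusp1 differed in sign between housings, without passing. Group-housed mice had 10.6 to 18.7 CPM with saline (median 12.7, n = 15) and 11.4 to 23.3 CPM with cocaine (median 15.2, n = 14). Isolated mice had 11.3 to 15.3 CPM (median 13.6, n = 13) and 9.54 to 18.5 CPM (median 13.1, n = 15). Cocaine libraries lay above the saline median in 12 of 14 group-housed and in 5 of 15 isolated cases. The changes were 0.24 (SE 0.07, adjusted p = 0.108) and -0.06 (SE 0.07, adjusted p = 0.878), and their difference was -0.30 (SE 0.10, adjusted p = 0.0904).

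Dusp6 in VTA followed the same course, with 0.21 in group-housed (SE 0.08, adjusted p = 0.186) and -0.09 in isolated mice (SE 0.08, adjusted p = 0.812), a difference of -0.30 (SE 0.12, adjusted p = 0.134). Dusp5 gave 0.40 (SE 0.20) and -0.09 (SE 0.21), a difference of -0.49 (SE 0.29, adjusted p = 0.355). In the same contrast, the cocaine change in isolated minus that in group-housed mice, 14 of 14 choroid plexus markers passed with a median of 4.50, and 1.28% of all genes passed. Their median cocaine change was 3.58 in isolated mice, where all 14 rose and 0.554% of all genes passed. It was -0.90 in group-housed mice, where none of the 14 and 0.332% of all genes passed. The mean log2 CPM of these markers ran from 0.65 to 7.31 in acute cocaine libraries of VTA and from 0.65 to 5.18 in acute saline ones. After the mean of each group was subtracted, their mean had correlations of 0.06 with Dusp1, 0.01 with Dusp6 and 0.04 with Dusp5 over 115 VTA libraries. The part of these markers in the housing difference of the members was not tested.

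Dusp4 in AMY went the other way with acute cocaine, at -0.19 (SE 0.09, adjusted p = 1). In series 1000 it ran from 7.72 to 17.8 CPM with saline (median 11.9, n = 14) and from 8 to 11.3 CPM with cocaine (median 9.66, n = 14), and 0 of 14 cocaine libraries reached the saline median. The change there was -0.32 (SE 0.12, unadjusted p = 0.00889, adjusted p = 1), against -0.05 (SE 0.12) in series 1100, where 8 of 14 lay above. The difference between the series, 0.28 (SE 0.17, adjusted p = 1), did not pass.

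In series 1100 a pair of members of low or uneven level gave larger values than in series 1000. Dusp2 in Nac, a gene under 1 CPM on average, changed by 0.31 in series 1100 (SE 0.14, adjusted p = 0.439) and 0.06 in series 1000 (SE 0.14). Dusp14 in VTA gave 0.28 in series 1100 (SE 0.13, adjusted p = 0.454) and -0.11 in series 1000 (SE 0.13), and the cocaine libraries of series 1100 included one at 23.7 CPM with raised cortical markers. None of these differences passed.

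Chronic cocaine against chronic saline gave 1 call among 24 tests, Dusp4 in PFC, where 7.12% of all genes were called. Dusp4 ran from 3.5 to 11.4 CPM with saline (median 6.16, n = 26) and from 5.41 to 13.5 CPM with cocaine (median 8.21, n = 28). Cocaine libraries lay above the saline median in 25 of 28 cases, though the ranges overlapped. The change was 0.35 (SE 0.10, adjusted p = 0.0185, edgeR), higher with cocaine in all 4 combinations of sex and housing. In isolated mice it was 0.51 (SE 0.14, adjusted p = 0.0215, background 4.39%) and in group-housed mice 0.20 (SE 0.14, adjusted p = 0.801), and the difference between housings, 0.31 (SE 0.19, adjusted p = 1), did not pass. It was the only call among the 24 tests in isolated and the 24 in group-housed mice. The background there was 0.00575% in AMY for either housing, 10.4% in isolated and 0.00579% in group-housed mice of Nac, 0% in group-housed mice of PFC, and 0.00583% in isolated and 0.0117% in group-housed mice of VTA.

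Chronic saline of series 500 held 3.5 to 6.59 CPM of Dusp4 in PFC (median 5.55, n = 10) and of series 1200 held 4.60 to 11.4 CPM (median 6.54, n = 16). The difference between these saline libraries was 0.42 (SE 0.13, adjusted p = 0.023, edgeR), where 13.4% of genes were called. Within series 1200 the change with chronic cocaine was 0.19 (SE 0.14, adjusted p = 1), and 5 of 8 cocaine libraries exceeded the median of saline. With series as a covariate it was 0.17 (adjusted p = 1) and in isolated mice 0.31 (adjusted p = 1). Markers moved in the comparison over all chronic libraries of PFC, where 7.12% of all genes were called. Of 10 striatal genes 7 were higher with cocaine (median 0.50), 2 of 10 cortical genes were lower and 9 of 30 activity-regulated genes higher. The mean log2 CPM of the striatal list ran from 4.22 to 7.31 with cocaine and from 4 to 6.39 with saline. Their part in the Dusp4 difference was not tested.

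Dusp6 had higher chronic cocaine values outside PFC without passing. In VTA it ran from 9.48 to 19.1 CPM with saline (median 13.5, n = 29) and from 11.9 to 22.6 CPM with cocaine (median 15.1, n = 29), 24 of 29 above the saline median. The change was 0.23 (SE 0.06, 95% interval 0.11 to 0.34, adjusted p = 0.134, background 0.0817%), and 0.24 (adjusted p = 0.0492) without the 7 libraries that stood apart in VTA. In AMY it was 0.26 (SE 0.08, adjusted p = 0.342, background 0.0518%) with 24 of 30 above, and in Nac 0.20 (SE 0.10, adjusted p = 0.26, background 0.151%). In PFC Dusp6 gave -0.03 (SE 0.07, 95% interval -0.18 to 0.11). Within series 1200, Dusp6 changed by 0.11 in VTA (SE 0.07, adjusted p = 1) and 0.29 in AMY (SE 0.11, adjusted p = 0.697).

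Dusp4 was also higher with chronic cocaine in AMY (0.25, SE 0.09, adjusted p = 0.481) and Dusp5 in PFC (0.19, SE 0.08, adjusted p = 0.108), and neither passed. In Nac the Dusp4 value was 0.20 over all libraries (SE 0.10, adjusted p = 0.253) but -0.10 within series 1200 (SE 0.13, adjusted p = 1), where 2 of 8 cocaine libraries exceeded the median of saline, and -0.14 with series as a covariate. Dusp1 lay at 0.00 to 0.08 in the 4 regions.

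Restricted to series 1200, chronic cocaine gave 1 member call in 24 tests, Dusp1 in Nac, where 3 genes or 0.0169% of those tested were called. Dusp1 ran from 12.8 to 19.9 CPM with saline (median 15.9, n = 18) and from 18.3 to 25.8 CPM with cocaine (median 20.0, n = 8). All 8 cocaine libraries lay above the saline median, and the ranges overlapped only between 18.3 and 19.9 CPM. The change was 0.43 (SE 0.07, adjusted p = 0.0179, edgeR). The other 2 genes called, named after their values were seen, were the activity-regulated gene Arc (0.82, SE 0.13, adjusted p = 0.0155) and Lcn2 (3.12, SE 0.48, adjusted p = 0.0155). One isolated female library made up a cocaine group of its own there, and the spread was taken as that of the other groups.

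The call of Dusp1 in Nac depended on single libraries and was lost on leaving out any of 4 of the 8 cocaine libraries: group-housed female replicate 7 (0.42, adjusted p = 0.0531), group-housed male replicate 8 (0.38, adjusted p = 0.131), isolated female replicate 7 (0.44, adjusted p = 0.0548) or isolated male replicate 7 (0.41, adjusted p = 0.118). It was also lost when the spread was estimated over all libraries of the region (0.43, adjusted p = 0.402).

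In the other regions Dusp1 was higher in series 1200 by 0.46 in PFC (SE 0.12, adjusted p = 0.907, background 0.00573%), 0.37 in AMY (SE 0.11, adjusted p = 0.634, background 0.00572%) and 0.12 in VTA (SE 0.07, adjusted p = 1, background 0.00576%). In PFC it ran from 16.3 to 31.4 CPM with saline (median 23.3, n = 16) and from 21.7 to 41.2 CPM with cocaine (median 33.2, n = 8). In each of the 3 regions 7 of 8 cocaine libraries lay above the saline median. The 8 cocaine libraries carried the same 8 title numbers in all 4 regions, so the regions are not independent.

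Dusp5 was higher in the same libraries in Nac by 0.47 (SE 0.10, adjusted p = 0.211), with 8 of 8 above the saline median. In PFC it was 0.39 higher (SE 0.10, adjusted p = 0.907), also with 8 of 8 above. In VTA it gave 0.63 (SE 0.30, adjusted p = 1), where one library with raised cerebellar markers held 7.72 CPM against a group median of 1.24.

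**Figure D5:**
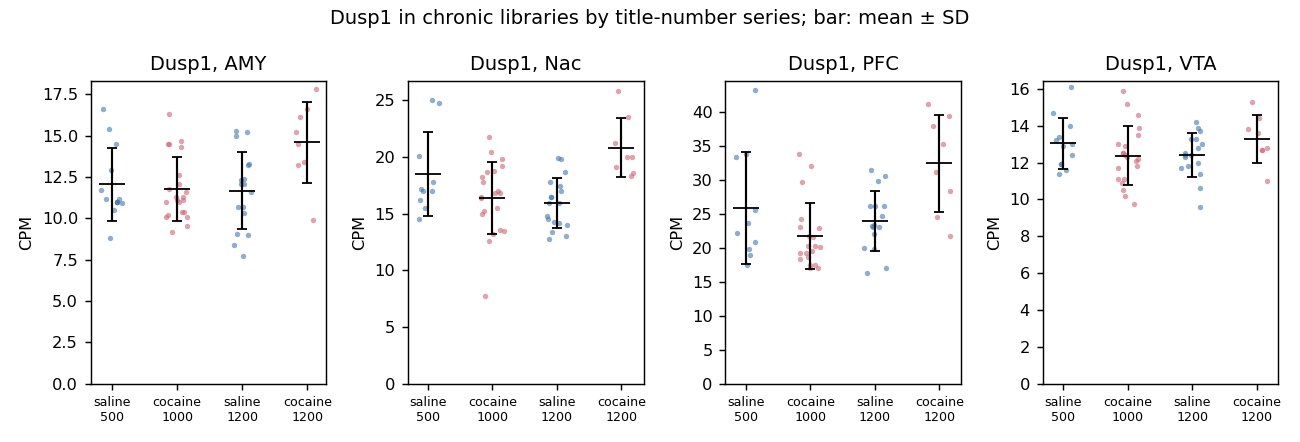
Dusp1 in CPM (vertical axis, linear, from 0) in every chronic library of the 4 regions (panels), by treatment and title-number series (horizontal axis), with the mean and SD as bars. Chronic cocaine libraries of series 1200 have a mean of 32.4 CPM in PFC against 21.7 for those of series 1000, and 20.8 CPM in Nac against 15.9 for saline of series 1200.

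Chronic cocaine libraries themselves differed by series in Dusp1. In PFC those of series 1000 ran from 17.0 to 33.8 CPM (median 20.2, n = 20) and those of series 1200 from 21.7 to 41.2 CPM (median 33.2, n = 8), a difference of 0.60 (SE 0.12, adjusted p = 0.0122, background 0.0499%). It was 0.37 in Nac (SE 0.11, adjusted p = 0.937, background 0%), 0.34 in AMY (SE 0.11, adjusted p = 0.424, background 0.00544%) and 0.12 in VTA (SE 0.08, adjusted p = 1). The pooled chronic change of Dusp1 in PFC, 0.00 (SE 0.09), averages over these series.

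Saline libraries also differed between series in Nac, where 38.4% of all genes were called between series 1200 and 500. Dusp4 was 0.80 higher in series 1200 (SE 0.16, adjusted p = 2.70e-05), while Dusp5 fell by 0.65 (SE 0.12, adjusted p = 5.70e-06), Dusp2 by 0.53 (SE 0.17, adjusted p = 0.0075) and Dusp1 by 0.32 (SE 0.11, adjusted p = 0.0124). Series 500 held 1 library of isolated females in Nac, replicate 6, which stood apart. Without isolated females and without the other libraries that stood apart, left out together, the values were 0.46 for Dusp4, -0.27 for Dusp5, -0.21 for Dusp2 and -0.28 for Dusp1, and none passed. Leaving out either alone was not tested. In PFC, Dusp14 was lower in series 1200 than 500 (-0.28, SE 0.09, adjusted p = 0.0309). No member passed between these series in AMY (background 3.54%) or VTA (background 0.0762%).

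No member passed for housing or sex by themselves. Averaged over the groups of each housing, the 24 differences of isolated against group-housed mice lay between -0.20 and 0.07, and 0 passed. Those between females and males lay between -0.08 and 0.10, and 0 passed, while for sex the share of all genes called was 2.19% (AMY), 0.272% (Nac), 1.12% (PFC) and 0.332% (VTA), and for housing it was 0% in each. In neither comparison did a member have an unadjusted p under 0.05, and edgeR, DESeq2 and limma voom all gave 0 calls. Of the differences between the sexes in the cocaine changes, 0 of 24 passed for the acute change, where 0% of genes passed. For the chronic change 0 of 24 passed, where 0.029% of genes passed in Nac and 0% elsewhere. An unadjusted p under 0.05 was found in 1 acute test, in VTA, and in 0 chronic ones. For the acute change the share of all genes with such a p was 6.18% in VTA, 4.65% in PFC, 4.4% in Nac and 2.17% in AMY. Of the differences between housings, 0 of 24 passed for the acute change, where 1.28% of all genes passed in VTA and 0% elsewhere. For the chronic change 0 of 24 passed, where 0% of all genes passed in each region. An unadjusted p under 0.05 was found in 5 acute and 0 chronic tests. For the acute change the share of all genes with such a p was 18.6% in VTA, 9.88% in AMY, 5.15% in Nac and 2.57% in PFC.

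Dusp1, Dusp5, Dusp6 and Dusp14 were positively correlated between libraries of the same group, and Dusp2 and Dusp4 less regularly so. After the mean of each group was subtracted, the correlation of Dusp6 and Dusp14 was 0.87 in Nac (n = 112 libraries), 0.73 in PFC (n = 112), 0.33 in AMY (n = 115) and 0.04 in VTA (n = 115). Dusp1 and Dusp6 had 0.55 in VTA, 0.57 in PFC, 0.69 in Nac and 0.70 in AMY. Dusp4 and Dusp14 had values between -0.18 and -0.10 in the 4 regions. Dusp4 and Dusp6 had 0.55 in VTA, 0.47 in AMY, 0.12 in Nac and -0.14 in PFC. In VTA, Dusp1 and Dusp14 had 0.09. Pairs with Dusp2 ranged from -0.24 (Dusp14 in AMY) to 0.29 (Dusp14 in Nac). These are descriptions over libraries that share their depth and tissue makeup.

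The same holds for the mean of the 30 activity-regulated genes, with which Dusp6 had a correlation of 0.90 in Nac, 0.84 in AMY, 0.74 in PFC and 0.16 in VTA. Dusp1 had 0.70 in AMY and Nac, 0.60 in PFC and 0.16 in VTA. Dusp14 had 0.80 in Nac, 0.63 in VTA, 0.53 in PFC and 0.47 in AMY. Dusp5 had 0.63 in Nac, 0.53 in PFC, 0.48 in AMY and 0.22 in VTA. Dusp4 reached no more than 0.43, in AMY, and Dusp2 lay between -0.15 and 0.09. The cortical glutamatergic list had correlations of 0.68 with Dusp6 in AMY and in Nac, 0.63 in PFC and 0.19 in VTA. With Dusp1 that list had 0.44 in AMY, 0.41 in VTA, 0.30 in Nac and 0.13 in PFC, and with Dusp5 0.67 in AMY, 0.35 in Nac and VTA and 0.00 in PFC. The part of tissue makeup in the correlations with activity-regulated genes was not tested.

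Among all other genes with a mean of at least 1 CPM, the closest to Dusp1 was Arc in AMY (0.72) and in PFC (0.85), and in Nac Arl4d (0.80) was followed by Arc (0.79) and Junb (0.78). In VTA the closest were Spry2 (0.63), Tgfb3 (0.62) and Fam43a (0.60). The closest to Dusp6 were Nptx2 in AMY (0.81), Dusp14 in Nac (0.87), Rgs4 and Nr4a1 in PFC (both 0.80) and Stk40 in VTA (0.71). Dusp14 was closest to Spry2 in Nac (0.89), Tmem198 in PFC (0.88), Fam81a in AMY (0.80) and Fam131a in VTA (0.77). Dusp4 was closest to Ttl in AMY (0.78), Zdhhc5 in Nac (0.75), Map3k19 in PFC (0.83) and Traf3 in VTA (0.67).

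Dusp5 was closest to Mpp3 in AMY (0.77), Spry2 in Nac (0.77) and Gadd45b in PFC (0.64). In VTA its closest genes were Zic1 (0.66), Fat2 (0.63) and Gabrd (0.61), of which Zic1 is on the cerebellar marker list. With that list as a whole Dusp5 in VTA had a correlation of 0.67 over 115 libraries and of 0.42 over the 108 that did not stand apart.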

How the data were processed

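The deposited table holds raw counts of reads per gene and library, which the authors made from 50-base single-end reads of stranded polyadenylated RNA, per the labels' protocols. STAR, featureCounts and limma with GRCm38/mm10 were used, per the submitters' processing notes; the sources used here give no versions, annotation or strand setting. Genes without a symbol (884, 0.11% of counts) stayed in the tests. Positions and exon lengths come from GENCODE M21 and promoters from RefSeq.

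Each region was fitted with edgeR 4.0.16 in R 4.3.3 (glmQLFit, robust; glmQLFTest), with 16 groups as cell means, filterByExpr and TMM factors. All p-values are two-sided and adjusted by Benjamini-Hochberg over all genes tested in a comparison, with a threshold of 0.05; a p is edgeR's unless another tool is named. SEs are on the log2 scale. CPM were TMM-scaled within a region, except for levels between regions. Series comparisons used cell means with number series, except that chronic cocaine within a single series used group cell means. Acute against chronic saline was taken from the fit with 16 groups, without number series. Acute against chronic cocaine used cell means with number series. Libraries stood apart at a robust z over 5 on 1 of the leading 4 components of the 3000 most variable genes, or over 8 for a marker list of another tissue. Correlations used log2 CPM with a prior count of 2.

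Members, gene lists and tests were chosen with earlier results of these data known. Named genes were the 6 members, up to 4 called members of a list, and the 3 genes closest to a member, of which 1 to 3 are given. Alternatives were limma voom (3.58.1), DESeq2 (1.42.0), RLE factors, no filter, number series as a covariate, leaving out libraries, and a block for the title number between regions. The test was checked on simulated counts.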

Additional observations from a re-analysis of the deposited data

Results flagged for a closer look

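In 31 of 384 checks of a member in a group, 1 library lay farther from the others of its group than Dixon's 95% limit allows, and chance alone gives this in about 1 of 20 groups. In 29 of them the library was the highest of its group. Of the 31 values, 8 came from the 21 libraries that stood apart from their region, 6 of them for Dusp5. Values are CPM.

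Dusp5 gave 12 of the values. In AMY they were 15.8 in isolated males with acute cocaine, 9.51 in group-housed males and 8.01 in isolated males with acute saline, each in a library with raised choroid plexus markers, and 11.8 in isolated females with acute saline and 7.60 in group-housed females with acute cocaine. In Nac they were 19.1 in isolated females with chronic saline, in the replicate 6 that stood apart, and 9.2 in isolated females with chronic cocaine. In PFC the value was 3.96, the lowest of the group-housed males with chronic saline. In VTA they were 7.72 and 3.92 in group-housed females with chronic cocaine and chronic saline, both with raised cerebellar markers, 5.43 in group-housed males with acute cocaine and 2.17 in isolated males with chronic cocaine.

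Dusp1 gave 18.2 in AMY (group-housed females, acute saline) and 39.2, 41.2 and 31.4 in PFC (isolated males with acute cocaine, group-housed males with chronic cocaine, isolated males with chronic saline). Dusp6 gave 64.3 and 46.1 in AMY (group-housed females with acute saline and acute cocaine), 85.4 in PFC (group-housed females, acute saline) and 25.1 in VTA (group-housed males, acute saline). The same AMY library of group-housed females with acute saline, replicate 6, held the values of both Dusp1 and Dusp6, and the same AMY library of group-housed females with acute cocaine, replicate 8, those of Dusp5 and Dusp6.

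Dusp4 gave 16.5 and 12.3 in AMY (isolated females with acute saline, group-housed males with chronic saline) and 10.7 and 13.3 in VTA (isolated females with acute cocaine, isolated males with chronic cocaine). Dusp14 gave 21.6 in AMY, the lowest of the group-housed males with chronic saline. In VTA it gave 23.7 in group-housed females with acute cocaine, in a library with raised cortical markers, 12.1 in group-housed males with acute cocaine and 8.47 in isolated males with chronic saline. Dusp2 gave 1.11 in AMY (isolated males, chronic cocaine) and 1.5 and 1.79 in Nac (group-housed males with acute cocaine, isolated females with chronic saline). The part of marker genes in these values was not tested.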

How the results depend on the processing

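Counts of members past the threshold changed by more than 1.5 times in 8 comparisons. With number series as a covariate, the call of chronic cocaine in PFC went from 1 to 0, and in isolated mice of PFC from 1 to 0. For acute cocaine in PFC the count went from 0 to 1 with limma voom, with DESeq2 and without the libraries that stood apart. Without those libraries it went from 0 to 1 for chronic cocaine in VTA, from 2 to 4 for acute against chronic saline in Nac, and from 1 to 2 for acute against chronic cocaine of series 1000 in VTA. Within series 1200 in Nac, leaving out 1 library at a time gave 0 to 1, and a spread shared over the region gave 0. Without isolated females and the libraries that stood apart, the count between saline of series 1200 and 500 in Nac went from 4 to 0. Fewer libraries enter the settings that leave some out; for the rest the cause was not tested.

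The sign turned for Dusp4 with chronic cocaine in Nac (-0.14 with number series as a covariate), and for values near 0 that did not pass: Dusp4 in AMY against PFC (0.00 with limma voom, and 0.00 with the title number as a replicate block), Dusp2 in Nac against PFC (0.00 without the libraries that stood apart), Dusp4 and Dusp2 in acute against chronic cocaine of series 1000 in AMY (0.00 with limma voom; 0.01 without the libraries that stood apart) and Dusp2 in acute against chronic saline in Nac (0.01 and 0.04 in the same 2 settings). The title number pairs libraries between regions only, and the block changed no call of a member there. Comparisons of acute with chronic libraries, the shared spread and the setting without isolated females were chosen after seeing the data.

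Counts over all genes that moved by more than 1.5 times are given with their lowest and highest alternative. Chronic cocaine called 7.12% of genes in PFC against 1 to 1346 genes, and called 9 (2 to 16) in AMY, 26 (1 to 105) in Nac and 14 (0 to 17) in VTA. In isolated mice it called 747 (0 to 874) in PFC and 1800 (0 to 2084) in Nac. Acute cocaine called 11 (8 to 17) in PFC and 8 (0 to 12) in VTA. In VTA it called 57 (3 to 75) in group-housed and 95 (1 to 109) in isolated mice, with 220 (0 to 319) for the difference, and in group-housed mice 11 (6 to 23) in PFC and 3 (0 to 3) in Nac. Within series 1200 the counts were 3 (0 to 6) in Nac, 1 (0 to 4) in AMY, 1 (0 to 5) in PFC and 1 (0 to 1) in VTA. Series 1200 against 500 gave 7499 (427 to 6874) in Nac and 14 (8 to 16) in VTA. Series 1200 against 1000 of chronic cocaine gave 9 (15 to 24) in PFC. Acute against chronic cocaine of series 1000 gave 735 (up to 2617) in Nac, and sex gave 47 (38 to 88) in Nac and 191 (74 to 260) in PFC. In the other reported comparisons whose count moved so, all counts lay between 0 and 7. Dusp2, under 1 CPM on average in every region, is the member most limited by depth.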
